A study of Mus musculus with 6 samples.

Results

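Glucose and lactate cross the membranes of retinal cells through 2 families of carriers, and 8 genes of this traffic were followed in mouse retina: the glucose transporters Slc2a1 and Slc2a3, the monocarboxylate transporters Slc16a1, Slc16a3, Slc16a7 and Slc16a8, their chaperone Bsg, and Txnip, a brake on glucose uptake. Every probe that the array's annotation assigns to 1 of these symbols was taken, which gave 12 of the 45281 probes, for 8 of the 19057 genes that the array names. RNA of isolated retinas had been hybridised to Illumina BeadChips, with 1 array for each of 3 samples of Vldlr knockout mice and 3 samples of wild-type mice. The disrupted gene codes for a receptor of very low density lipoproteins, through which cells take up fatty acids from triglyceride-rich particles, so the comparison asks whether transcripts for the handling of other fuels differ where that receptor gene is disrupted. The labels give the genotype, the tissue and the word JAX as background for both groups. They name neither a strain, an age, a sex nor the way in which the gene was disrupted. Replicate numbers follow the order of deposit and are used here only to name the samples. Whether knockout and wild-type samples were paired is not given. No label ties a sample to an animal. The p-values below weigh a group difference only against the scatter among these samples, which may be technical repeats.

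As background, the mammalian retina takes up much glucose and turns a large share of it into lactate even when oxygen is present, a habit it shares with tumours, and photoreceptors do most of this. Glucose arrives through the endothelium of the retinal vessels and through the pigment epithelium, both of which carry GLUT1, the product of Slc2a1. Lactate leaves photoreceptors and moves between glia, neurons and pigment epithelium on the proton-coupled carriers MCT1, MCT2, MCT3 and MCT4, the products of Slc16a1, Slc16a7, Slc16a8 and Slc16a3. The carriers MCT1, MCT3 and MCT4 need basigin, the product of Bsg, to reach the surface. The Txnip protein, an alpha-arrestin, binds thioredoxin and draws GLUT1 off the membrane, and its gene is switched on by glucose through the factors MondoA or ChREBP with their partner Mlx.

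Of the 8 genes, Txnip had the largest difference, with its probes at 51.4% and 56.6% of the wild-type signal in knockout retinas, but neither probe passed the test over all probes. The 12 probes split into 8 that could be tested, from 6 genes, and 4 that were above background on too few arrays. Testing required GenomeStudio to place a probe above background, at a detection p under 0.05, on 3 or more of the 6 arrays. Tested probes were compared with limma, knockout minus wild-type, on the normalized log2 signal, and p-values were adjusted by Benjamini-Hochberg over all 19921 probes tested. By this test 0 of the 8 probes passed an adjusted p of 0.05, while 435 of all tested probes did (2.18%), of which 130 were higher (0.653%) and 305 lower (1.53%). At an unadjusted p under 0.05 there were 2 of the 8, both of Txnip, against 11.7% of all tested probes. The knockout and wild-type arrays did not overlap for 1 of the 8, against 18.1% of all tested probes. The median difference over the 8 probes was 0.12, against 0.03 over all tested probes.

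**Figure D1:**
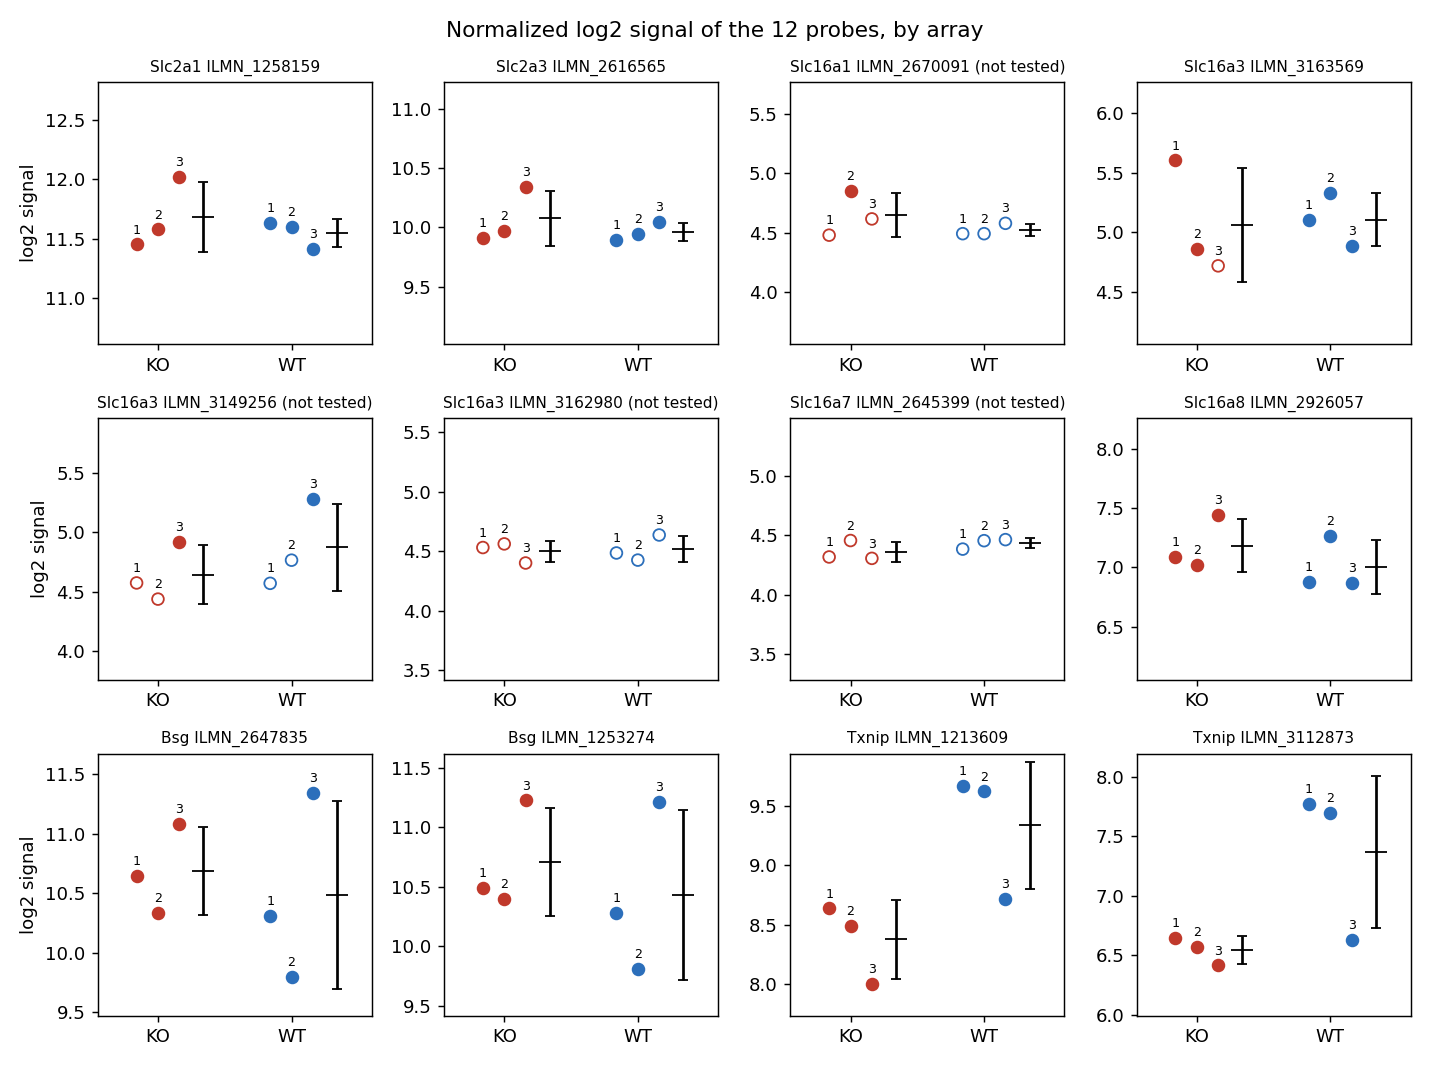
Normalized log2 signal of each of the 12 probes on the 3 knockout arrays (KO, red) and the 3 wild-type arrays (WT, blue), with the replicate number beside each point, open points where the detection p was 0.05 or more, and bars for the mean and SD. All panels span the same number of log2 units; the knockout points lie below every wild-type point only in the panel of Txnip ILMN_1213609.

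The arrays were alike in detection and raw signal. Each had 18710 to 20974 probes at a detection p under 0.05 and a median raw signal of 63.9 to 75.9. The median correlation with arrays of the same group was 0.980 to 0.987 for knockout arrays. It was 0.961 to 0.971 for wild-type arrays, with wild-type replicate 3 the lowest. Wild-type replicate 1 correlated more with the knockout arrays (0.977) than with its own group (0.971). Vldlr had 5 tested probes, of which 3 passed, all lower in knockout. The brightest (ILMN_2796472) was at a log2 signal of 10.26 ± 0.128 in knockout and 11.44 ± 0.207 in wild-type arrays (SD, n = 3 each), a difference of -1.17 (SE 0.179, limma adjusted p = 0.00946). The other 2 tested probes, both dim and with overlapping groups, differed by 0.23 and 0.02 (limma adjusted p = 0.857 and 0.992). The positions of these probes on the disrupted gene are not known here. Marker genes were counted by their brightest tested probe. The tissue label fitted its markers, as 10 of 12 rod genes were tested and their median log2 signal was 12.6 to 13.4 on every array, and 0 of the 10 passed the test. Of the 10 cone markers tested, Pde6c was lower by 2.37, and Arr3 and Gnat2 were higher by 0.91 and 0.95 (limma adjusted p = 0.000306, 0.0187 and 0.0491). Lens transcripts set 1 array apart, with a median log2 signal over 10 lens genes of 11.85 on knockout replicate 1, 7.63 and 8.36 on the other knockout arrays, and 6.51 to 9.31 on the wild-type arrays. By limma 0 of the 11 Müller glia, 12 inner neuron and 9 microglia markers tested passed in this way. A dimmer probe of the inner neuron marker Sncg did pass, at -1.84 (limma adjusted p = 0.00103), while its brighter probe differed by 0.46 (adjusted p = 0.502). In bulk retina, fewer cells of a type and less RNA per cell cannot be told apart.

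Slc2a1, the gene of the main glucose carrier of the blood-retina barrier and of photoreceptors and glia, was bright on all 6 arrays. Its probe (ILMN_1258159) had a log2 signal of 11.45, 11.58 and 12.02 in knockout retinas, against 11.63, 11.60 and 11.41 in wild-type retinas. Knockout replicates 1 and 2 lie within the wild-type range and replicate 3 lies above it. The means were 11.68 ± 0.297 in knockout and 11.55 ± 0.118 in wild-type (SD, n = 3 each), a difference of 0.14 (SE 0.196, limma adjusted p = 0.827). The 95% interval of the difference ran from -0.31 to 0.58, that is, from 80.6% to 150% of the wild-type signal. A fall of the knockout signal below 80.6% of wild-type thus lies outside that interval, while a rise by up to 1.5 times lies within it. Without knockout replicate 3, the difference was -0.03 (limma adjusted p = 0.962).

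Slc2a3 encodes GLUT3, the carrier with a high affinity for glucose that neurons use. It had a log2 signal of 9.91, 9.97 and 10.34 in knockout retinas, against 9.90, 9.95 and 10.05 in wild-type retinas. The groups overlapped, and knockout replicate 3 was again the highest array. The difference was 0.11 (SE 0.18, limma adjusted p = 0.851), with a 95% interval of -0.30 to 0.52, or 81.4% to 143% of wild-type. It was -0.02 without knockout replicate 3, so for both glucose carriers the sign of the difference rested on that array. The same array was the highest for rod markers as well, with a median log2 signal over the 10 rod genes of 13.37 against 12.70 and 12.84 on the other knockout arrays, and the part of this in the Slc2a1 and Slc2a3 values was not tested. Of 11 endothelial markers tested 0 passed by limma, with a median difference of 0.26. Their summed background-subtracted intensity, not scaled between arrays, was 3637 to 4595 in knockout and 2671 to 3960 in wild-type retinas. Their median normalized log2 signal was 7.06, 7.10 and 6.63 in knockout retinas, against 6.88, 7.12 and 6.96 in wild-type retinas. Neither was tested against Slc2a1.

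Of the monocarboxylate carriers, Slc16a1, Slc16a7 and Slc16a3 gave little signal. The only probe of Slc16a1 (ILMN_2670091), the gene of the widely expressed MCT1, was above background on 1 of 3 knockout arrays and 0 of 3 wild-type arrays. Its background-subtracted intensity, on the linear scale of the authors' table, was 1.7, 11.6 and 7.3 in knockout and 2.1, 2.4 and 5.8 in wild-type retinas. These values are not well above background, and no difference can be drawn from them. The only probe of Slc16a7 (ILMN_2645399), the gene of the neuronal carrier MCT2, was above background on 0 of 6 arrays. It had background-subtracted intensities of -5.1, 1.2 and -6.6 in knockout and -2.3, 1.1 and 2.0 in wild-type retinas. How much of either transcript these retinas held is thus not measured: a probe at background limits what the array can show and says nothing further about the transcript.

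Slc16a3, which encodes MCT4, the lactate exporter of strongly glycolytic cells, had 3 probes, each annotated to another RefSeq transcript (NM_001038654, NM_001038653 and NM_030696). The probe for NM_001038654 was the only one tested, above background on 2 of 3 knockout and 3 of 3 wild-type arrays. Its log2 signal was 5.60, 4.86 and 4.72 in knockout retinas, against 5.10, 5.33 and 4.88 in wild-type retinas. Knockout replicate 1 was the highest array and knockout replicates 2 and 3 the lowest, so the groups overlapped fully, with a difference of -0.04 (SE 0.254, limma adjusted p = 0.965). Its 95% interval, -0.62 to 0.53, left room for a signal between 65.0% and 145% of wild-type. The probe for NM_001038653 was above background on knockout replicate 3 and wild-type replicate 3 alone, with log2 signals of 4.92 and 5.28 there, and that for NM_030696 on 0 of 6 arrays.

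Slc16a8 encodes MCT3, which in mouse eyes sits on the choroidal face of the pigment epithelium and hands lactate on to the blood. It was detected on all 6 arrays, although the tissue is labelled as retina. The log2 signal was 7.09, 7.02 and 7.44 in knockout retinas, against 6.88, 7.26 and 6.87 in wild-type retinas. Each group spanned about the same range and they overlapped, with a difference of 0.18 (SE 0.196, limma adjusted p = 0.77; 95% interval -0.27 to 0.62). Markers of the pigment epithelium were present on the same arrays: 11 of 12 were tested, and their summed background-subtracted intensity was 2962 to 5400 in knockout and 3271 to 4508 in wild-type retinas. By limma 0 of the 11 passed by their brightest probe. However, 2 probes of Rgr, an opsin-like protein gene counted among these markers, passed in opposite directions, at 0.80 and -1.84 (limma adjusted p = 0.045 and 0.000405). The array with the highest sum in each group, knockout replicate 3 and wild-type replicate 2, was also the array with the most Slc16a8 signal in that group. These sums are not scaled between arrays. The median normalized log2 signal of the 11 markers was 7.56, 7.68 and 7.83 in knockout retinas, against 8.07, 8.24 and 7.69 in wild-type retinas. The same arrays were the highest in their groups by this median. The match did not hold over all arrays. Knockout replicate 1 had the lowest median but more Slc16a8 signal than knockout replicate 2 and wild-type replicates 1 and 3. The part of pigment epithelium cells in the Slc16a8 signal was not tested. Rpe65, the retinoid isomerase that defines this epithelium, was dim, with a log2 signal of 5.31 to 5.46 in knockout and 5.0 to 5.39 in wild-type retinas.

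**Figure D2:**
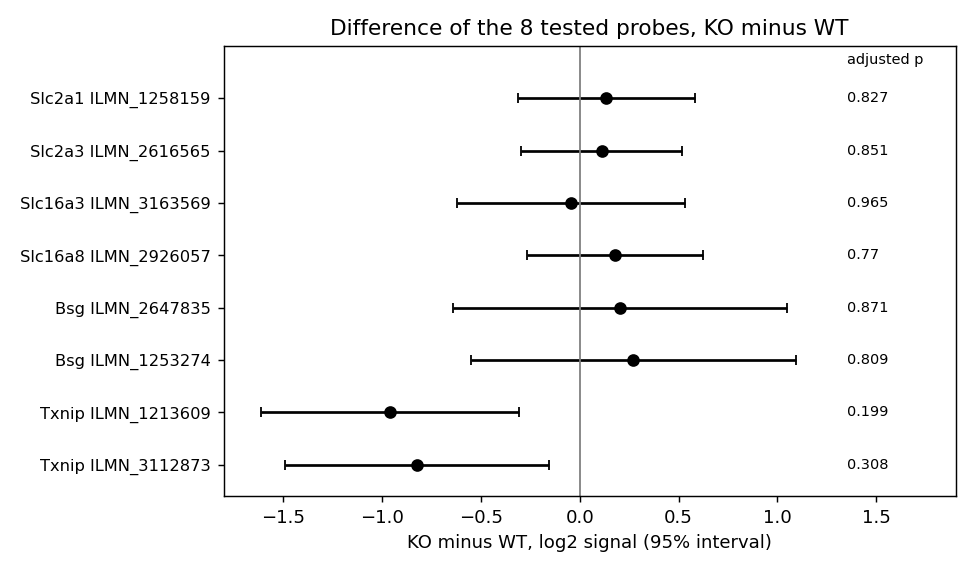
Difference in log2 signal between knockout and wild-type arrays (n = 3 each) for the 8 tested probes, with limma's 95% interval and the adjusted p over all tested probes. The intervals of the transporter and Bsg probes include 0; those of the 2 Txnip probes, which are not adjusted for the number of probes, run from -1.61 to -0.31 and from -1.49 to -0.15.

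Bsg encodes basigin, an immunoglobulin-family protein that escorts the lactate carriers to the membrane and that, in mouse photoreceptors, also occurs in a longer form peculiar to the retina. Its 2 probes (ILMN_2647835 and ILMN_1253274) are both annotated to NM_009768, and whether either can tell these forms apart is not known here. The first had a log2 signal of 10.65, 10.34 and 11.08 in knockout retinas, against 10.31, 9.80 and 11.34 in wild-type retinas. The second had 10.49, 10.40 and 11.23 in knockout retinas, against 10.28, 9.81 and 11.22 in wild-type retinas. Both probes were high on replicate 3 of each group and lowest on wild-type replicate 2, so the spread within a group exceeded the difference between the groups.

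The differences for Bsg were 0.20 (SE 0.371) and 0.27 (SE 0.363), with limma adjusted p = 0.871 and 0.809. Their 95% intervals reached from 64.2% to 206% and from 68.2% to 214% of wild-type, so a 2-fold rise of Bsg lay within both. The 2 probes followed each other closely over the 6 arrays (Pearson r = 0.979, a description over arrays that share both probes' hybridisation), and their difference stayed between -0.15 and 0.15 on the log2 scale. Within the wild-type group alone the first probe spanned 1.55 log2 units and the second 1.41. Wild-type replicate 3 and knockout replicate 3, the arrays with the most Bsg signal, also had the most detected probes (20974 and 20725), and the part of this was not tested. Without wild-type replicate 3, the differences were 0.64 and 0.66 (limma adjusted p = 0.335 and 0.351), and without wild-type replicate 2 they were -0.14 and -0.04 (0.917 and 0.978).

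The promoter of Txnip is shown because the gene answers to glucose through it. The RefSeq sequence (build GRCm38.p6) covers chr3:96557707-96558006 on the plus strand, from 250 bases before to 50 bases after the start of the gene. The capitals mark a tandem repeat of CACGAG spaced by 5 bases, the layout of a carbohydrate response element, the element to which MondoA or ChREBP binds with Mlx.
Txnip promoter: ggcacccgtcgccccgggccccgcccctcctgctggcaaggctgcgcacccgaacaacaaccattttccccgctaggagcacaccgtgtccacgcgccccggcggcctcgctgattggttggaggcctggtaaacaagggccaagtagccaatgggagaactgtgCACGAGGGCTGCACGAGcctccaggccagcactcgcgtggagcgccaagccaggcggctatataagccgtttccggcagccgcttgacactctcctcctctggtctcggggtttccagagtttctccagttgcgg

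The repeat starts 85 bases before the start of the gene. The motif searched was CACGAG, 5 bases of any kind and CACGAG again, on both strands, a spelling chosen with this promoter in view, and 1 of 32851 promoters of this length holds it (0.00304%). The wider form with CACGNG in both places, which contains the first, was found in 16 of them (0.0487%). A match describes letters and not a bound site. Promoters were matched for 5 of the 8 genes, and among the other 4 (Slc2a1, Slc16a1, Slc16a3 and Slc16a8) the wider form was not in these windows. Slc2a3, Slc16a7 and Bsg were not matched. The hypoxia core ACGTG, read on both strands and overlapping the E-box CACGTG, was present for Slc2a1, Slc16a1 and Slc16a3 and in 19.6% of all promoters.

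Txnip was lower in sign on both of its probes. The probe annotated to NM_023719 (ILMN_1213609) had a log2 signal of 8.64, 8.49 and 8.0 in knockout retinas, against 9.67, 9.62 and 8.72 in wild-type retinas. All knockout arrays lay below all wild-type arrays, as did those of 8.84% of all tested probes, with wild-type replicate 3 the nearest to the knockout range. On the linear scale of the authors' background-subtracted table, which is not scaled between arrays, the same probe was at 315.3, 351.3 and 294.9 in knockout retinas, against 718.7, 828.3 and 411.4 in wild-type retinas. The probe annotated to NM_001009935 (ILMN_3112873) had a log2 signal of 6.64, 6.57 and 6.41 in knockout retinas, against 7.77, 7.69 and 6.63 in wild-type retinas. Here wild-type replicate 3 fell within the knockout range, so the groups overlapped.

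The means of the first Txnip probe were 8.38 ± 0.332 in knockout and 9.34 ± 0.534 in wild-type (SD, n = 3 each). This is a difference of -0.96 (SE 0.288, unadjusted p = 0.00899, limma adjusted p = 0.199), or 51.4% of the wild-type signal with a 95% interval of 32.7% to 80.9%. The second probe differed by -0.82 (SE 0.295, unadjusted p = 0.0215, limma adjusted p = 0.308), or 56.6% of wild-type. A larger difference in either direction was found in 2.73% of tested probes for the first probe and in 4.01% for the second. The 2 probes moved together over the 6 arrays (Pearson r = 0.968), so they do not count as separate evidence.

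When arrays were left out in turn, the Txnip probes passed only without wild-type replicate 3. There they differed by -1.28 and -1.20 (limma adjusted p = 0.023 and 0.00832). Over all tested probes, 382 passed without that array, against 202 to 270 without any 1 of the others. Without any 1 of the other arrays the first probe differed by -1.08 to -0.78 and did not pass, with an adjusted p of 0.282 to 0.52. The difference of that probe was below 0 under each of the 19 alternative settings tried, and it passed in 3 of them.

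**Figure D3:**
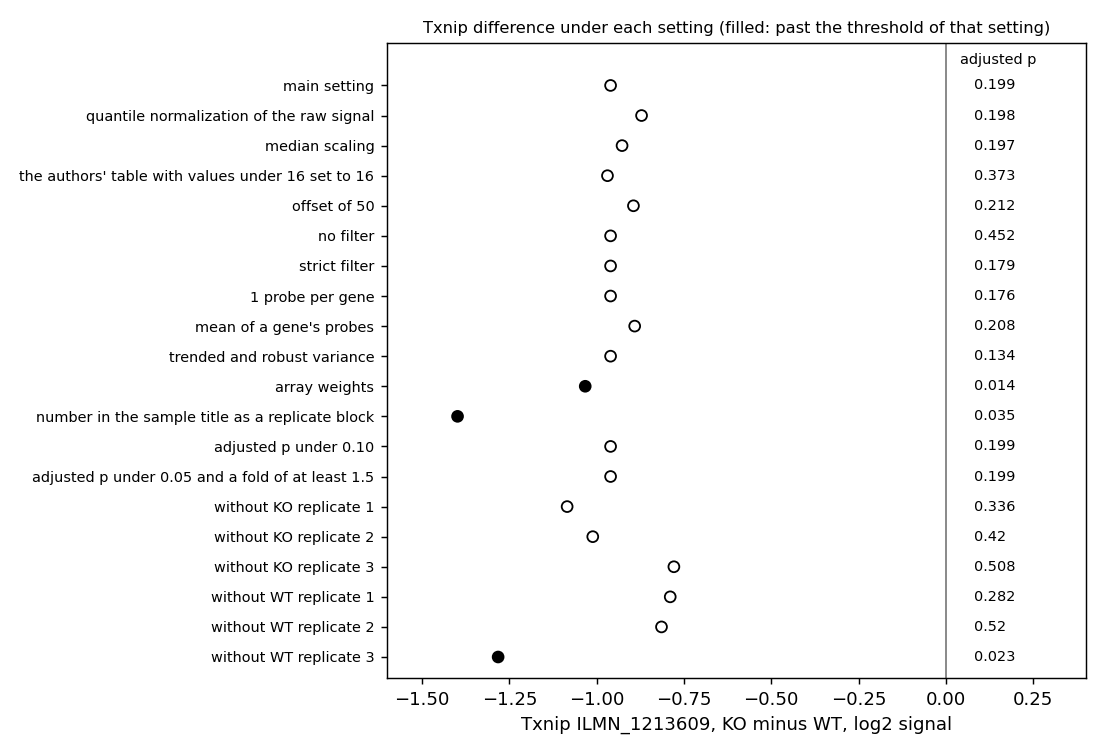
Difference in log2 signal between knockout and wild-type arrays for Txnip ILMN_1213609 under the main setting and 19 alternatives, with the adjusted p of each. Filled points passed that setting's threshold, which was the case with array weights, with a block for the numbers that sample titles share, and without wild-type replicate 3.

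Blood transcripts were set beside Txnip, and their direction depended on the probe. Of 11 erythrocyte markers 6 were tested, and by the brightest probe of each gene all 6 were higher in sign in knockout retinas and 0 passed by limma, with a median difference of 0.69. Among these 6, Hbb-b2 was above background on 3 of 3 knockout and 0 of 3 wild-type arrays. It was thus tested only through its signal in knockout retinas, and its sign carries no weight. Of the 10 tested probes of the globin genes Hbb-bs and Hbb-bt, near copies of each other, 5 were higher and 5 lower in sign. The 2 that passed were both lower, at -3.94 for Hbb-bs ILMN_1255462 and -0.91 for Hbb-bt ILMN_1235372 (limma adjusted p = 0.000266 and 0.0345). The median log2 signal of the 6 markers, 1 probe each, was 10.20, 9.67 and 9.34 on the knockout arrays, against 9.02, 8.60 and 9.73 on the wild-type arrays. Wild-type replicates 1 and 2, where Txnip was highest, were the arrays where this median was lowest, and wild-type replicate 3 lay within the knockout range for the erythrocyte markers and for the second Txnip probe. Within the knockout group the order was the same for both, as this median and both Txnip probes were highest on replicate 1 and lowest on replicate 3. The summed background-subtracted intensity of the 6 markers was 20952 to 36107 in knockout and 11042 to 23972 in wild-type retinas. The part of blood content in the Txnip difference was not tested.

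Microglia markers were set beside Txnip as well. Of 12 markers 9 were tested, 0 passed by limma, 2 were higher and 7 lower in sign, and the median difference was -0.24. The summed background-subtracted intensity of the 9, not scaled between arrays, was 320.1, 395.0 and 536.0 in knockout retinas, against 552.7, 711.3 and 527.5 in wild-type retinas. By this sum wild-type replicate 3 lay within the knockout range. Their median normalized log2 signal was 5.66, 5.51 and 5.25 in knockout retinas, against 5.49, 5.52 and 5.47 in wild-type retinas. By this median all wild-type arrays lay within the knockout range. Cx3cr1, the fractalkine receptor of microglia, had a log2 signal of 6.03, 6.11 and 6.35 in knockout retinas, against 6.91, 7.44 and 6.41 in wild-type retinas (limma adjusted p = 0.283). The groups did not overlap for Cx3cr1, and wild-type replicate 3 was, as for the first Txnip probe, the nearest to the knockout range. The complement genes C1qb and C1qa differed by -0.68 and -0.57, likewise without overlap (adjusted p = 0.174 and 0.28), and C1qa was above background on 1 of 3 knockout arrays. Over all tested probes, 8.84% had every knockout array below every wild-type array. The purinergic receptor gene P2ry12 differed the other way, by 0.28 (adjusted p = 0.571). It was dim and above background on 3 of 3 knockout and 0 of 3 wild-type arrays, so it was tested only through its signal in knockout retinas. Of the remaining markers, Csf1r differed by -0.24 without overlap. C1qc, Tyrobp, Tmem119 and Aif1 differed by -0.47, -0.15, -0.01 and 0.01, with overlapping groups. The part of microglia in the Txnip difference was not tested.

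**Figure D4:**
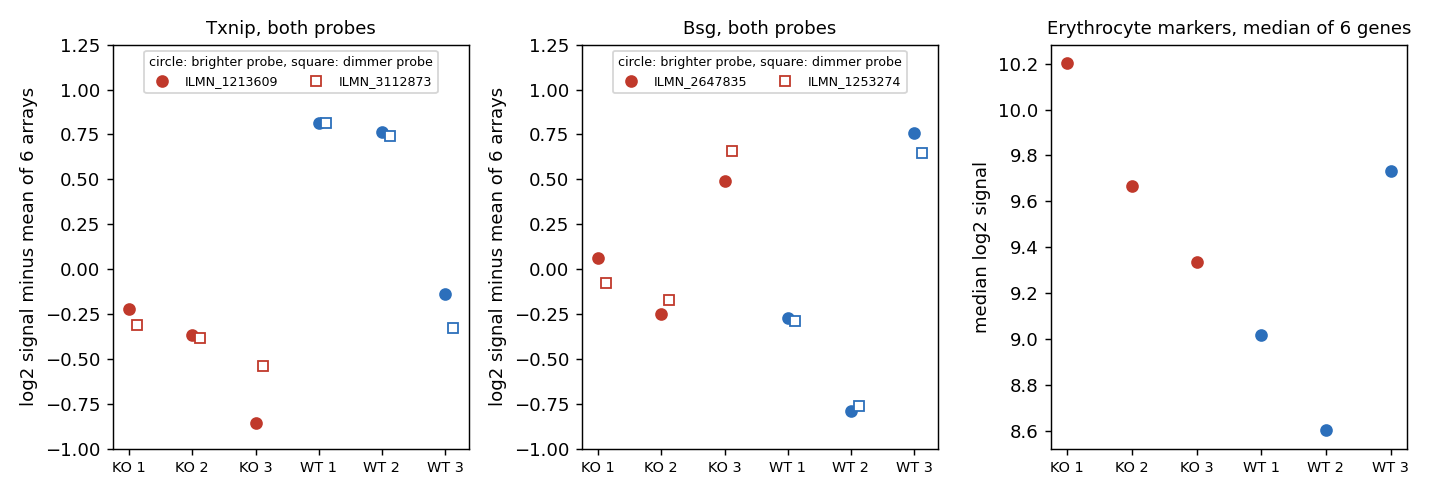
Log2 signal of both Txnip probes and both Bsg probes on each array, as the deviation from that probe's mean over the 6 arrays, and the median log2 signal of 6 erythrocyte markers, each by its brightest probe (knockout red, wild-type blue; the axes of the third panel differ). Txnip is high on wild-type replicates 1 and 2 only, Bsg is high on replicate 3 of each group, and the erythrocyte median is lowest on wild-type replicates 1 and 2.

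The other genes of glucose and lactate traffic were followed through 6 lists of 84 genes in all, of which 77 had a probe under their symbol and 49 were tested, each by its tested probe with the highest mean signal. By limma 0 of the 49 passed an adjusted p of 0.05, nor did any other tested probe of these genes, against 254 of 11089 named genes tested (2.29%). At an unadjusted p under 0.05 there were 4 of 49, with 3 higher and 1 lower, against 11.9% of all named genes. The median difference was -0.02 over the 49 genes and 0.01 over all named genes.

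Among other hexose transporters, 8 of 19 were tested, 0 passed, 2 were higher and 6 lower in sign, and the median was -0.19. Slc45a1, a proton-linked sugar carrier of brain, had the smallest p. Its log2 signal was 4.39, 4.69 and 4.49 in knockout retinas, against 4.97, 5.30 and 5.20 in wild-type retinas. It was not well above background on any knockout array and was above it on all 3 wild-type arrays, so it was tested only through its signal in wild-type retinas. The fitted difference of -0.63 (limma adjusted p = 0.157) did not pass, and it lay between -0.71 and -0.29 over the alternatives in which the probe was tested. Slc2a8, an intracellular hexose carrier, differed by -0.32 (adjusted p = 0.535).

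Among other monocarboxylate transporters, 6 of 14 were tested, 0 passed, 3 were higher and 3 lower in sign, and the median was -0.03. Slc5a8, a sodium-coupled carrier of lactate and pyruvate, had the smallest p, with a log2 signal of 5.91, 5.66 and 5.65 in knockout retinas, against 5.39, 5.42 and 4.71 in wild-type retinas. The groups did not overlap, but the difference of 0.56 (SE 0.225, limma adjusted p = 0.369) did not pass, and the probe was above background on 2 of 3 wild-type arrays. The other 5 differed by -0.27 to 0.19. The probes of Slc16a6, which encodes MCT7, a ketone body carrier in zebrafish liver, disagreed in sign at -0.20, 0.41 and 0.61 (limma adjusted p = 0.828, 0.588 and 0.596).

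The list of basigin relatives and partners had 6 of 6 genes tested, 0 that passed and a median of 0.13. Emb, whose product embigin is a relative of basigin that escorts MCT2, had a log2 signal of 8.73, 8.91 and 8.80 in knockout retinas, against 8.29, 8.30 and 8.65 in wild-type retinas. All knockout arrays were above all wild-type arrays, as in 9.28% of tested probes, and the difference was 0.40 (SE 0.175, limma adjusted p = 0.414). Nxnl1, from which rods make the cone viability factor that binds basigin on cones, differed by 0.21 (adjusted p = 0.77). Nptn, the gene of the other basigin relative neuroplastin, differed by 0.03 (adjusted p = 0.97).

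For Txnip's relatives, partners and regulators, 9 of 14 genes were tested, 0 passed, and the median was -0.04. Arrdc4, the alpha-arrestin closest to Txnip and likewise a target of MondoA, had a log2 signal of 8.18, 8.17 and 7.79 in knockout retinas, against 8.38, 8.13 and 7.81 in wild-type retinas. The groups overlapped throughout, with a difference of -0.06 (SE 0.206, limma adjusted p = 0.934). Its own promoter window holds 1 copy of CACGTG, a motif found in 7.15% of all promoters, and not the tandem repeat shown for Txnip. Whether the Txnip difference exceeds that of Arrdc4 was not tested. Mlxipl, which encodes ChREBP, was dim and differed by -0.30 (adjusted p = 0.528), and Mlxip, which encodes MondoA, by -0.07 (adjusted p = 0.942). Txn1, the thioredoxin that Txnip binds, differed by 0.02 (adjusted p = 0.982).

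Enzymes that use the transported fuel showed no member past the threshold either, with 7 of 15 tested and a median of -0.09. Pdk2, a kinase that holds pyruvate out of the mitochondrion's oxidation, had the smallest p at -0.61 (SE 0.296, limma adjusted p = 0.468). Its log2 signal was 6.0, 5.86 and 5.91 in knockout retinas, against 5.81, 6.73 and 7.07 in wild-type retinas, so wild-type replicate 1 lay below every knockout array. Ldha, the lactate dehydrogenase subunit of glycolytic cells, differed by -0.09 (SE 0.191, adjusted p = 0.885). In the machinery that brings glucose carriers to the surface, 13 of 16 genes were tested, 0 passed and the median was 0.000124. Vamp2, a vesicle fusion protein, had the smallest p there at 0.39 (SE 0.17, adjusted p = 0.42).

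**Figure D5:**
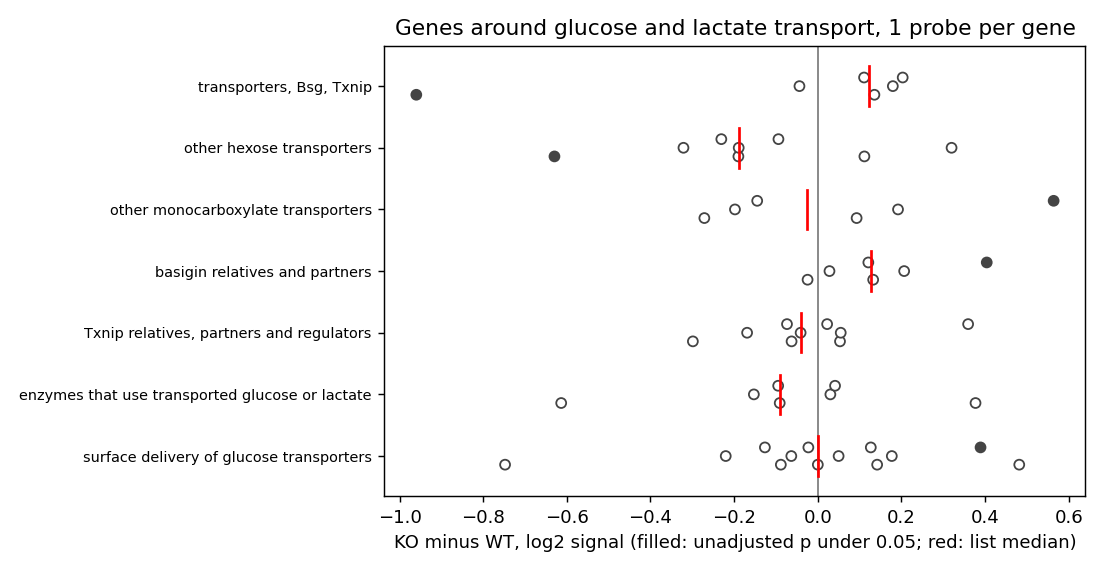
Difference in log2 signal between knockout and wild-type arrays for every tested gene of the followed set (top row) and of the 6 lists around it, 1 probe per gene, with the list median in red and filled points at an unadjusted p under 0.05. Txnip at -0.96 lies farthest from 0, and 0 of these genes passed an adjusted p of 0.05.

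The 3 genes of the set that varied most over the arrays were compared with all other named genes, provisional symbols left out, by Pearson correlation over the 6 arrays, as a description of arrays that share the group difference and the sample. Txnip was followed most closely by Folr1, Tmem74b and Serpinh1 (r = 0.996, 0.996 and 0.993), which differed between the groups by -0.62, -0.81 and -0.38 (limma adjusted p = 0.275, 0.259 and 0.455). Folr1 encodes a folate receptor and Serpinh1 a collagen chaperone. Bsg was followed by Flrt3, an adhesion protein, Tle5, a corepressor, and Cdk15 (r = 0.997, 0.995 and 0.993), which differed by 0.05 to 0.09. Slc16a3, at its low signal, was followed by Rnf224, Trmt9b and the calcium-binding protein gene Cabp2 (r = 0.994, 0.988 and 0.984).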

How the data were processed

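Biotin-labelled cRNA from 3 Vldlr knockout and 3 wild-type retina samples was read out with GenomeStudio, per the submitters' processing notes (version not given in the sources used here). Per the file headers, the authors deposited raw probe intensities, each with its detection p-value, and a table of intensities equal to these minus 1 constant per array. The raw intensities were normalized with neqc of limma 3.58.1 (R 4.3.3; offset 16, quantile, log2), and all probes with a detection p under 0.05 on at least 3 arrays were fitted with group as the only term. Unlike a fit with 1 probe per gene, every probe was a feature, because the genes were followed by all their probes. The offset compresses differences of dim probes. The number of arrays limits precision.

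The 8 genes, the lists and the tests were chosen with earlier results of these data known. Named besides them are Vldlr, list genes past the threshold or with the smallest p, at most 3 called genes per marker list and the 3 most correlated genes of variable members. The other list genes named (Slc2a8, Slc16a6, Nxnl1, Nptn, Arrdc4, Mlxip, Txn1, Ldha, Rpe65, Sncg, Rgr, Hbb-b2, Hbb-bs, Hbb-bt, Cx3cr1, C1qa, C1qb, C1qc, P2ry12, Csf1r, Tyrobp, Tmem119, Aif1) were chosen after their values were seen. On simulated arrays of 19921 probes, differences of 1, 2 and 3 log2 units were called in 20%, 82% and 92% of changed probes, and those of 0.5 in 0%. No slide or scan batch is given. Symbols came from the platform annotation, and all 8 matched the RefSeq gene table. Figures used matplotlib 3.10.9.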

Additional observations from a re-analysis of the deposited data

How the results depend on the processing

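The 19 alternatives were other normalizations, an offset of 50, no filter, a strict filter, 1 probe or the mean of probes per gene, another variance model, array weights, a block, other thresholds and leaving out each array. The count of 0 among the transporter, Bsg and Txnip probes was 2, both of Txnip, with array weights (differences of -1.03 and -1.01, adjusted p = 0.014 and 0.0136) and with a replicate block on title numbers (-1.40 and -1.24, adjusted p = 0.035 and 0.0472), and 0 to 2 when an array was left out. The block rests on numbers 4 and 5 alone, the only ones both groups carry. The deviations of arrays that share a title number correlated at -0.02 and -0.27. Those of arrays that share a replicate number, which is the order of deposit, correlated at 0.28, 0.31 and 0.36. The remaining pairs were at -0.27 to 0.09. No label says whether either number pairs samples, and so few arrays cannot decide it. No fit paired samples by order of deposit. The count for the 6 lists stayed at 0 in all 19. The signs of Slc2a1, Slc2a3, Slc16a3, Slc16a8 and both Bsg probes turned in 1 to 4 alternatives each, never past the threshold. The count of 435 over all probes was 223 with the authors' table, 920 with array weights (41.1% of them higher, against 29.9% of the 435), 282 with the block (19.1%) and 202 to 382 with an array left out. The Vldlr difference was -1.15 (adjusted p = 0.125) with the authors' table, -0.68 (0.226) as a mean of its probes, -1.004 (0.113) with the block and -1.26 to -1.06 with an array left out, where it did not pass without knockout replicate 1 (0.0719) or 2 (0.0724). The cause was not tested. Signal near background limits Slc16a1, Slc16a3 and Slc16a7.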
